A study of Homo sapiens with 6 samples.

Results

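Silencing of PBRM1 in BT-549 cells went with lower transcript levels of IL6, CSF1 and IL32, of which IL6 was reduced to 6.40% of its control level. The genes described here are 10 interleukins and growth cytokines that tumor cells can secrete, namely IL6, IL1A, IL1B, IL11, IL15, IL32, LIF, CSF1, CSF2 and CSF3. They were found by symbol, and each has 1 of the 37887 rows of the deposited table of raw counts. The values are RNA levels, and secreted protein was not measured. BT-549 is an established triple-negative breast cancer (TNBC) line, and PBRM1 is a subunit of the PBAF chromatin remodeling complex. The series compared 3 control libraries (shCTL) with 3 libraries of PBRM1-silenced cells (shPBRM1), and it addresses how PBRM1 bears on inflammatory gene expression in TNBC cells.

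The titles of the shCTL libraries name a control shRNA and those of the shPBRM1 libraries a PBRM1 shRNA. Their treatment labels give DMSO for shCTL, at 0.1%, and doxycycline (DOX) for shPBRM1, at 500 ng/ml. The design text describes cells that all carry a stably expressed tet-inducible PBRM1 shRNA vector, so that the text and the titles differ on what the control cells carried. In either reading the shPBRM1 cells alone were exposed to DOX, and DOX exposure and silencing cannot be told apart. The labels name 1 PBRM1 shRNA vector and 1 cell line. The labels mention triplicate cultures and no more, so the p-values measure the spread between these libraries, which may be technical.

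IL6, IL11 and LIF act on cells through receptors that share the gp130 chain, which activates STAT3. IL1A and IL1B are the founding ligands of the IL-1 receptor, whose signal runs through MYD88 to NF-kB, and NF-kB in turn drives many cytokine genes, IL6 among them. CSF1, CSF2 and CSF3 are the colony-stimulating factors of macrophages, granulocytes and macrophages, and granulocytes, IL15 sustains natural killer and T cells, and IL32 is a proinflammatory cytokine found in humans but not in rodents.

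Total counts ranged from 36429395 to 65096297 per library. A floor of 3 counts corresponded to between 0.0471 and 0.0804 CPM (counts scaled to library size after TMM normalization), and it covers counting error only. PBRM1 itself had 5870, 7619 and 8118 counts in shCTL against 2598, 1591 and 2657 in shPBRM1, which left 26.5% of its control level (log2 fold change -1.91, SE 0.027, edgeR quasi-likelihood test, adjusted p = 9.98e-23). The mesenchymal markers VIM, FN1, SNAI2, ZEB1 and CD44 were all present, with summed levels of 2929 to 3004 CPM in shCTL and 3253 to 3313 CPM in shPBRM1. They did not move together: FN1 was called lower (log2 fold change -1.33), SNAI2 and ZEB1 differed by -0.73 and -0.55, and VIM and CD44 by 0.31 and 0.47. Of the luminal and epithelial markers, ESR1 had 0 counts in 5 of 6 libraries and 2 in the other, PGR at most 12 and EPCAM at most 8 counts. ERBB2, at 51.3 CPM in shCTL, differed by -0.04 on the log2 scale (adjusted p = 0.469, edgeR), and CDH1 fell to 1.51 ± 0.313 CPM, or 30.2% of its control level. The part of these markers in the cytokine values was not tested either. Among 10 leukocyte markers, CD3E, MS4A1 and CD2 had 0 counts in every library and 3 more stayed at or under 3 counts. The summed leukocyte markers lay between 2.84 and 3.60 CPM in shCTL and between 1.10 and 1.22 CPM in shPBRM1, with CD163 and PTPRC lower and CD14 higher. CD163 and PTPRC passed the filter on low counts only through the shCTL libraries where they were high, so their calls support nothing. The part of this shift in the cytokine values was not tested. The summed endothelial markers lay between 1.47 and 1.85 CPM in shCTL and between 2.02 and 2.26 CPM in shPBRM1. They did not move together: KDR was called higher (log2 fold change 1.65) and TEK differed by 0.003. PECAM1, CDH5 and VWF were not tested, with at most 18 counts in any library and lower means in shPBRM1. In bulk libraries such as these, fewer cells of a type and less RNA per cell cannot be told apart.

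Inflammatory factors can act on cytokine genes through sites in the DNA just upstream. RefSeq promoters (GRCh38.p14) were matched for 6 of the 10 genes, IL6, IL32, IL1A, IL1B, IL11 and CSF2, and the 250 bases before each start were searched on both strands. The motifs were those of NF-kB (GGGNNNNNCC, in 54.4% of 35116 promoters), AP-1 (TGANTCA, 6.57%), C/EBP (TTGCNNAA, 9.05%), the cAMP response element core or CRE (ACGTCA, 7.10%), the interferon-stimulated response element or ISRE (GAAANNGAAA, 3.02%) and the gamma-activated sequence or GAS (TTCNNNGAA, 6.57%). The stretches below show IL6 and IL32, which were called lower in shPBRM1, beside IL1B and CSF2. IL1B was tested and not called, and CSF2 was under the filter on low counts and was not tested. Capitals mark the matches, and bases that GENCODE v29 annotates as exon were left out.
IL6 promoter, chr7:22727027-22727146, plus strand: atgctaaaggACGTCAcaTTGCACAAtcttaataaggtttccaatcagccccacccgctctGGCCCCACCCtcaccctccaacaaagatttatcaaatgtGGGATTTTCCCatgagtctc
IL32 promoter, chr16:3065213-3065296, plus strand: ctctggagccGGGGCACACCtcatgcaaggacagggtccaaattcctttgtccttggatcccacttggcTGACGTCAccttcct
IL1B promoter, chr2:112836941-112837004, minus strand: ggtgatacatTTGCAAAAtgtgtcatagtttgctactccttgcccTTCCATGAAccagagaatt
CSF2 promoter, chr5:132073589-132073723, plus strand: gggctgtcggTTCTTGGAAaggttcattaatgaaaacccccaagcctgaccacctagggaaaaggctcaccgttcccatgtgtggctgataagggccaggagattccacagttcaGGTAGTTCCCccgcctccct

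In IL6, the CRE core starts 163 bases before the RefSeq start and the C/EBP match 155 bases before it. The NF-kB matches begin at 112, 73 and 72 bases, and the last pair overlaps in a single stretch. The window lies in an intron of the longest IL6 transcript in GENCODE v29, which begins further upstream. IL32 has a pair of overlapping CRE cores, an NF-kB match at 180 bases, and further NF-kB matches at 99, 98 and 68 bases that fall in its annotated exon sequence. IL1B has a C/EBP and a GAS match and no NF-kB match in these letters, CSF2 a GAS and an NF-kB match, and IL11 and IL1A an AP-1 match each at their first start. No window of these 6 genes holds the ISRE letters. The NF-kB letters alone are in over 50% of all promoters, so that a match is a description of the sequence and not a site in use.

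The 3′ UTRs of cytokine transcripts are known for AU-rich elements, which mark an mRNA for rapid decay. The nonamer ATTTATTTA occurs in the longest annotated 3′ UTR of 6.92% of 19132 genes and in those of IL1B, IL11 and CSF2, and not in those of the other 7 cytokines. The densest site of each is shown with the nonamers, merged where they overlap, in capitals.
IL1B, bases 342 to 371 after the stop codon: ccctATTTATTTATTTAtttgtttgtttgt
IL11, bases 40 to 69 after the stop codon: tcttATTTATTTATTTAtttcagtactggg
CSF2, bases 225 to 254 after the stop codon: aaatATTTATTTATTTATTTATTTAagttc
The shorter pentamer ATTTA occurred 6 times in the 429 bases of IL6, or 14.0 per kb, 8 times in the 318 bases of CSF2 and nowhere in the 464 bases of IL32. The median over genes was 1.58 per kb.

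IL6 (chromosome 7, 22725884 to 22732002, plus strand in GENCODE v29 on GRCh38) was the cytokine with the largest difference. It had 5273, 7047 and 7298 counts in shCTL replicates 1 to 3 and 531, 364 and 598 in those of shPBRM1. After scaling these were 141, 145 and 145 CPM against 8.85, 9.35 and 9.38 CPM, so that the groups were far apart and each was tight. IL6 fell by 3.97 on the log2 scale (SE 0.030, adjusted p = 3.61e-27, edgeR quasi-likelihood test, adjusted by Benjamini-Hochberg across 15450 genes), from 144 ± 2.06 to 9.19 ± 0.302 CPM (mean ± SD, n = 3). Only 137 of the tested genes had a more negative fold change. STEAP1B overlaps IL6 on the opposite strand, had at most 44 counts in any library and was itself called lower (log2 fold change -1.13, adjusted p = 0.00347, edgeR). The antisense transcript AC073072.1 also overlaps IL6 and has no row under that name. The strand setting of the counting is not given in the sources used here. The value of IL6 lay between -4.02 and -3.93 under every alternative tried.

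LIF (chromosome 22, 30240447 to 30246851, minus strand), the gp130 cytokine that maintains stem cell states, was expressed well above the floor in both groups and differed by much less than IL6. Its counts of 2907, 3869 and 3789 in shCTL and 3834, 2517 and 3912 in shPBRM1 corresponded to 77.9, 79.6 and 75.1 against 63.9, 64.7 and 61.4 CPM. The groups did not overlap, and the level in shPBRM1 was 81.6% of that in shCTL. The log2 fold change was -0.29 (SE 0.033, adjusted p = 3.18e-07, edgeR), which is under the 2-fold minimum. The antisense transcript LIF-AS1 had at most 13 counts in any library, and another, AC004264.1, has no row under that name.

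IL11 (chromosome 19, 55364389 to 55370463, minus strand), the third gp130 ligand, was barely detected. It had 2, 3 and 13 counts in shCTL and 6, 4 and 6 in shPBRM1, so that the groups overlapped and 1 shCTL library held most of the control counts. Over the group sums of 18 and 16 counts, the depth-adjusted ratio of shPBRM1 to shCTL was 0.745 (95% exact interval 0.355 to 1.55, counting error only). A difference was not detectable at this depth (exact permutation test, two-sided, p = 1, n = 3).

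IL1B (chromosome 2, 112829751 to 112836903, minus strand), the IL-1 ligand that caspase-1 cleaves to its active form, was low and went the other way. Its counts were 22, 23 and 29 in shCTL against 51, 41 and 60 in shPBRM1, or 0.589, 0.473 and 0.575 CPM against 0.850, 1.05 and 0.941 CPM. Every shPBRM1 library was above every shCTL library, and the mean level of 0.948 ± 0.102 CPM was 174% of the control level of 0.546 ± 0.0634 CPM. The log2 fold change was 0.79 (SE 0.14, adjusted p = 0.0155, edgeR), again under 2-fold. The adjusted p was 0.0566 with DESeq2 and 0.0607 by edgeR without shCTL replicate 2, where the log2 fold change was 0.69.

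IL1A (chromosome 2, 112773915 to 112784590, minus strand), the IL-1 ligand that is active without cleavage, had 2, 3 and 4 counts in shCTL and 8, 9 and 15 in shPBRM1. It was under the filter on low counts. The groups did not overlap, and their sums of 9 and 32 counts gave a depth-adjusted ratio of 2.98 (95% exact interval 1.39 to 7.10). A two-sided exact permutation test of CPM returned p = 0.1, which no 3 against 3 comparison can go below. Fitted with no filter on low counts, its log2 fold change was 1.56 with an adjusted p of 0.0980 by edgeR. Without shPBRM1 replicate 1 it passed the filter, but only through the shPBRM1 libraries where it was high, so that its call as higher there (1.79) supports nothing.

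CSF1 (chromosome 1, 109910242 to 109930992, plus strand), which recruits and sustains macrophages, had the highest counts of the 10 genes. The counts were 7277, 9850 and 9759 in shCTL and 4379, 3059 and 4684 in shPBRM1, corresponding to 195, 203 and 194 CPM against 72.9, 78.6 and 73.5 CPM. The lowest control library was thus more than 2-fold above the highest silenced one. CSF1 fell by 1.39 on the log2 scale (SE 0.040, adjusted p = 2.65e-19, edgeR), to 38.1% of its control level, and lay between -1.44 and -1.37 under the alternatives.

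CSF2 (chromosome 5, 132073790 to 132076170, plus strand), known as GM-CSF, had 8, 0 and 6 counts in shCTL and 12, 17 and 12 in shPBRM1. In CPM the groups overlapped, since shCTL replicate 1 reached 0.214 CPM and shPBRM1 replicate 3 was at 0.188 CPM. The sums of 14 and 41 counts gave a ratio of 2.45 (95% exact interval 1.31 to 4.88), and the exact permutation test gave p = 0.3 (two-sided, n = 3). CSF3 (chromosome 17, 40015361 to 40017813, plus strand), known as G-CSF, never exceeded 3 counts, with 2, 0 and 2 in shCTL and 0, 2 and 0 in shPBRM1, and no fold is given for it.

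The intervals on these sums assume single independent counts. In each library between 1553 and 1710 rows had exactly 2 counts, against 919 to 982 with exactly 1, and 60.9% to 61.8% of counts from 1 to 20 were even. If both mates of some read pairs were counted, the intervals are too narrow, and this was not tested.

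IL15 (chromosome 4, 141636599 to 141733987, plus strand) had 641, 789 and 833 counts in shCTL and 463, 338 and 550 in shPBRM1. These were 17.2, 16.2 and 16.5 CPM against 7.71, 8.69 and 8.63 CPM, with no overlap. The level in shPBRM1 was 50.1% of that in shCTL, and the log2 fold change of -0.998 (SE 0.061, adjusted p = 8.42e-11, edgeR) stopped just short of 2-fold, so that IL15 was not counted among the called genes. It passed the minimum when shCTL replicate 2 (-1.02), shCTL replicate 3 (-1.004), shPBRM1 replicate 2 (-1.02) or shPBRM1 replicate 3 (-1.03) was left out.

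IL32 (chromosome 16, 3065297 to 3082192, plus strand) had 236, 316 and 285 counts in shCTL and 159, 128 and 186 in shPBRM1, or 6.32, 6.50 and 5.65 CPM against 2.65, 3.29 and 2.92 CPM. It fell by 1.07 on the log2 scale (SE 0.11, adjusted p = 4.35e-08, edgeR), to 47.9% of the control level. Without shPBRM1 replicate 1, its lowest library, the log2 fold change was -0.99 with an adjusted p of 2.5e-07, just under 2-fold. IL15 and IL32 lay on either side of the threshold, at 50.1% and 47.9%, and these percentages differ by less than the spread between replicates.

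**Figure D1:**
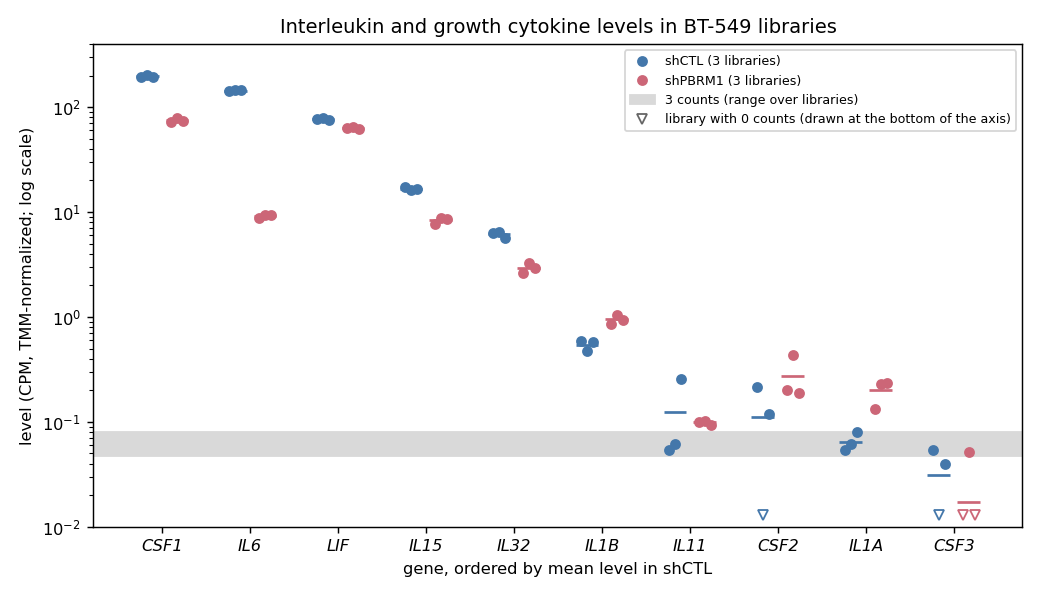
Levels of the 10 cytokine genes in CPM on a log scale, with 1 point per library and a line at the mean of each group; the grey band is the level of 3 counts and open triangles at the bottom are libraries with 0 counts. IL6 spans 141 to 145 CPM in shCTL and 8.85 to 9.38 CPM in shPBRM1, whereas IL11, CSF2, IL1A and CSF3 lie close to the band.

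Of the 10 cytokines, 6 passed the filter on low counts and were tested. A gene was called where its adjusted p was under 0.05 and its fold change above 2. Called lower were 3 of these 6, and 0 were called higher, where 9.68% of all 15450 tested genes were called lower and 2.87% higher. DESeq2 likewise called 0 of them higher. By edgeR's adjusted p alone 5 were lower and 1 higher, against 33.2% and 31.5% of all genes. The 2 groups did not overlap for any of the 6, as for 68.3% of all tested genes. The median log2 fold change over the 6 was -1.03 and that over all tested genes -0.0080. These counts cover only genes that were high enough to be tested and describe this short list.

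**Figure D2:**
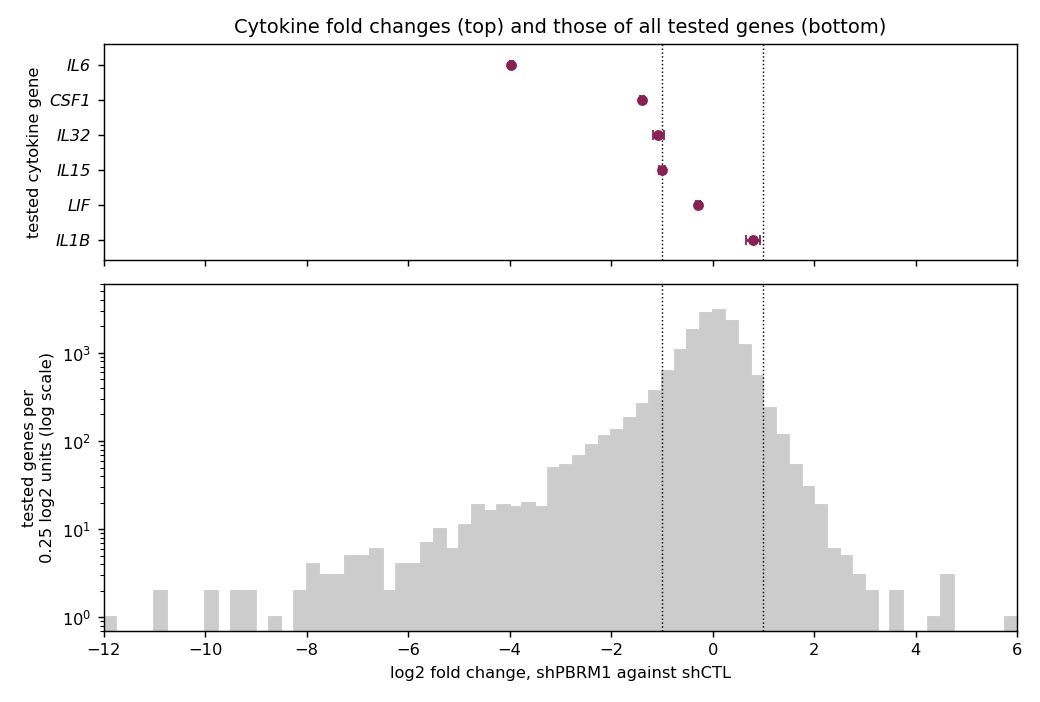
Log2 fold change of shPBRM1 against shCTL for the 6 tested cytokines, with bars of 1 SE (top), above the number of all 15450 tested genes at each fold change on a log scale (bottom); dotted lines mark 2-fold. IL6 at -3.97 lies in the sparse left tail, and IL1B at 0.79 is the only 1 of the 6 to the right of 0.

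Per base of annotated exon, IL6 was the highest of the 10 cytokines in the control cells and LIF in the silenced cells. In CPM, CSF1 was the highest in both groups, at 197 and 75.0 CPM, against 77.5 and 63.3 CPM for LIF. The length counts every annotated exon of a gene, so the order depends on which transcripts are expressed, and this was not tested. In shCTL the order on the RPKM scale (CPM divided by the gene's exon length in kb) was IL6 (69.4 ± 0.995), CSF1 (36.4 ± 0.904), LIF (19.5 ± 0.567), IL15 (2.12 ± 0.0615) and IL32 (1.92 ± 0.140). In shPBRM1 it was LIF (16.0 ± 0.433), CSF1 (13.8 ± 0.576), IL6 (4.44 ± 0.146), IL15 (1.06 ± 0.0695) and IL32 (0.920 ± 0.100). The neighbours IL15 and IL32 lay within about 2 SD of each other in both groups, and below them IL1B and CSF2 did not differ beyond their spread, at 0.176 ± 0.0205 and 0.141 ± 0.136 RPKM in shCTL.

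The summed RPKM of the 10 genes was 130 ± 1.77 in shCTL and 37.0 ± 1.30 in shPBRM1. IL6 made up 53.5 ± 0.644% of the sum in shCTL and 12.0 ± 0.430% in shPBRM1. The share of LIF was 15.1 ± 0.322% and 43.1 ± 1.11%, and that of CSF1 28.0 ± 0.338% and 37.4 ± 0.269%. For each IL6 transcript there were 0.287, 0.286 and 0.271 LIF transcripts per length in shCTL and 3.76, 3.60 and 3.41 in shPBRM1. As shares of 1 sum, these values rise for some genes wherever they fall for others, and LIF itself was slightly lower in CPM.

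**Figure D3:**
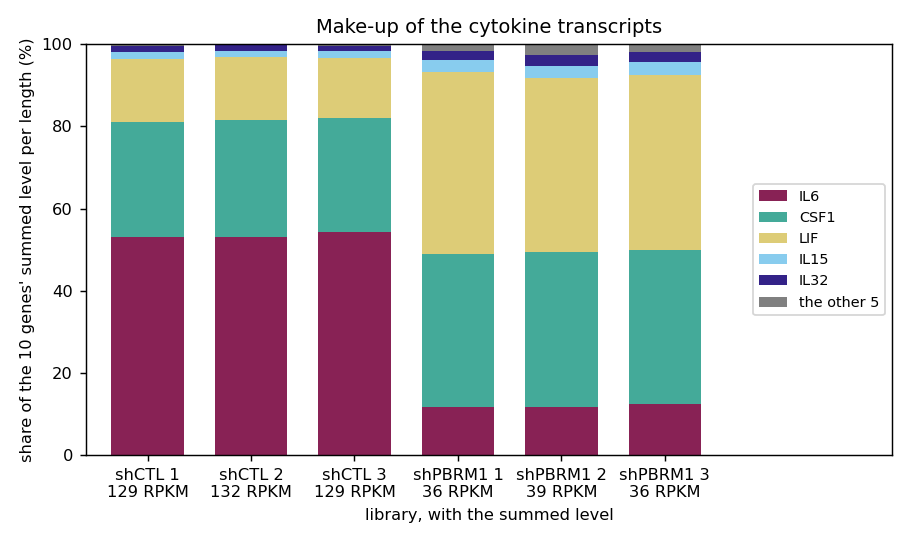
Share of each cytokine, in percent, of the 10 genes' summed RPKM in each of the 6 libraries, with the sum under each bar; the shares within a bar add up to the whole. IL6 takes 53.1% to 54.2% of the shCTL bars and 11.7% to 12.5% of the shPBRM1 bars.

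The spread within a group was small for the abundant genes. The coefficient of variation between the 3 libraries was 1.43% in shCTL and 3.28% in shPBRM1 for IL6, 2.90% and 2.71% for LIF and 2.49% and 4.16% for CSF1. It was 7.28% and 10.9% for IL32 and 11.6% and 10.8% for IL1B, the genes with the fewest counts among those tested. Between settings, the fold changes of IL15 and IL32 crossed 2-fold and the adjusted p of IL1B crossed 0.05.

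**Figure D4:**
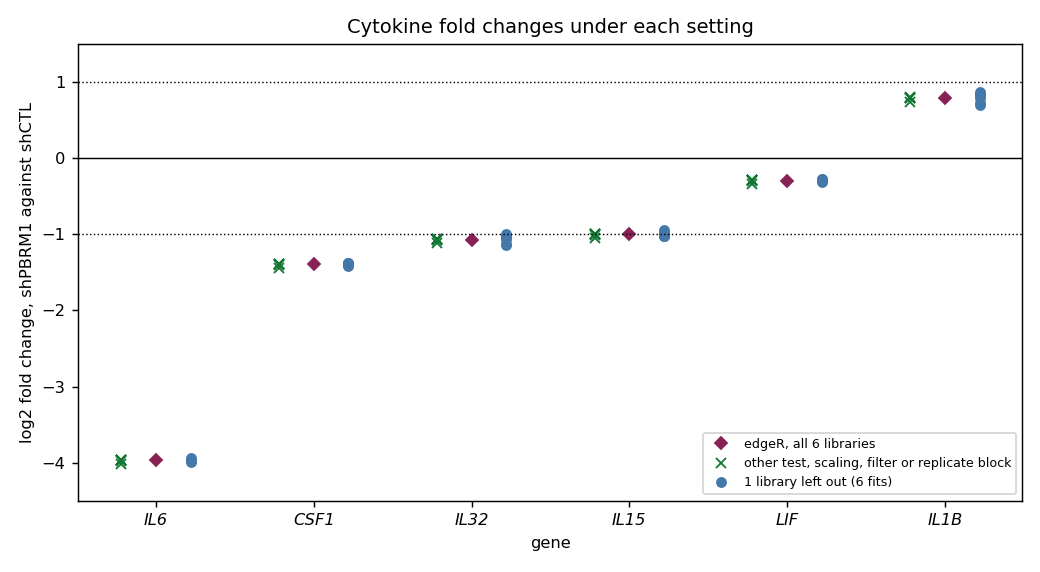
Log2 fold change of each tested cytokine (y axis) with all 6 libraries in edgeR (diamonds), under other tests, scalings, filters or the replicate block (crosses) and with 1 library left out (circles); dotted lines mark 2-fold. IL6 stays between -4.02 and -3.93, and IL15 and IL32 scatter around -1.

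The tested genes whose profile over the 6 libraries was most like that of IL6, by the Euclidean distance of centered log2 CPM, were MMP1 (distance 0.201), TDRD7 (0.219) and EPSTI1 (0.250). MMP1 encodes an interstitial collagenase. Its log2 fold change was -4.06, that of TDRD7 -3.97 and that of EPSTI1 -3.96. Fold changes near that of IL6 follow from choosing genes by this distance and are no separate result.

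Among cytokine genes outside the 10, many were at the floor and those called were all lower. Of 47 further interleukins and growth cytokines, 22 stayed at or under 3 counts in every library and 15 were tested. Called lower were 7, higher 0 and neither 8, against 9.68% of all genes called lower and 2.87% higher. By the adjusted p alone 10 were lower and 1 higher, against 33.2% and 31.5% of all genes. The median log2 fold change was -0.58. DESeq2 called 0 genes higher in this list and in each of those that follow. TSLP, an epithelial alarmin, fell from 67, 120 and 130 counts to 14, 14 and 10 (log2 fold change -3.26, SE 0.36, adjusted p = 7.54e-10, edgeR). IL26, of the interleukin-10 family, fell from 16.7 ± 0.131 to 2.62 ± 0.190 CPM (-2.67, SE 0.059, adjusted p = 2.67e-17, edgeR). IL24 fell by 2.56 on the log2 scale, and IL23A, a subunit of interleukin-23, had a log2 fold change of -1.84 (adjusted p = 7.68e-04, edgeR), both with at most 33 counts in any library. The other 3 called genes, named after their values were seen, were IL7 (-1.79), IL34 (-1.47), a second ligand of the CSF1 receptor, and IL16 (-1.22). IL34 was not called without shPBRM1 replicate 3 (-1.19, adjusted p = 0.0517, edgeR). TSLP, IL24, IL23A and IL34 had at most 14 counts in any shPBRM1 library. They passed the filter on low counts only through the shCTL libraries where they were high, so their calls add nothing to the counts. EBI3, also named after its values were seen, had 4, 14 and 4 counts in shCTL and 11, 20 and 26 in shPBRM1, a difference of 1.14 on the log2 scale (adjusted p = 0.0630, edgeR). With the replicate number as a block it was called higher (1.28, adjusted p = 0.0298), as it was without shCTL replicate 2 (1.94) and without shPBRM1 replicate 1 (1.49). In each of these fits EBI3 passed the filter only with the shPBRM1 libraries where it was high, so that these calls support nothing.

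Of 13 receptor chains for the 10 cytokines, 12 had a row and 9 were tested, with 2 called lower, 0 higher and a median of -0.20, against 9.68% of all genes called lower and 2.87% higher. By the adjusted p alone 4 were lower and 3 higher, against 33.2% and 31.5% of all genes, a split near that of genes in general. IL2RB, a signalling chain for IL15, fell from 32, 61 and 38 counts to 4, 6 and 4 (log2 fold change -3.42, SE 0.42, adjusted p = 3.36e-07, edgeR). It passed the filter only through the shCTL libraries where it was high, so its call adds nothing to the counts. IL15RA, which presents IL15 to other cells, fell from 6.20 ± 0.617 to 1.98 ± 0.292 CPM (-1.62, SE 0.15, adjusted p = 2.46e-10, edgeR). The third IL15 receptor chain, IL2RG, had 0 counts in every library. Among chains named after their values were seen, the gp130 gene IL6ST was the most abundant, at 703 ± 19.9 CPM in shCTL and 459 ± 6.93 CPM in shPBRM1 (-0.62). IL6R had a log2 fold change of -0.83, LIFR of 0.53, IL1RAP of 0.52 and IL1R1 of 0.09, none of them over 2-fold. CSF1R, the receptor for CSF1, had between 21 and 26 counts in every library (-0.20, adjusted p = 0.652, edgeR), and CSF2RB and CSF3R were not tested.

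The inflammatory caspases CASP1 and CASP4 were lower in shPBRM1. Of 16 genes for the maturation and restraint of IL-1, 10 were tested, with a median of -0.38. Called lower were 4 and higher 0, against 9.68% of all genes called lower and 2.87% higher. By the adjusted p alone 5 were lower and 2 higher, against 33.2% and 31.5% of all genes. The 2 higher, named after their values were seen, were CAPN1 (log2 fold change 0.22) and CAPN2 (0.62). CASP1, the caspase that cleaves IL1B, fell from 312, 385 and 397 counts to 16, 6 and 6 (log2 fold change -5.53, SE 0.36, adjusted p = 8.67e-17, edgeR). CASP4, the caspase that senses cytosolic lipopolysaccharide, fell from 25.4 ± 0.359 to 5.27 ± 0.303 CPM (-2.26, SE 0.048, adjusted p = 1.11e-17, edgeR). NLRP1, an inflammasome sensor, fell from 81, 73 and 65 counts to 20, 8 and 18 (-2.53). CARD16 had 35, 58 and 39 counts against 0, 0 and 6 (-4.64, adjusted p = 2.36e-07, edgeR). It is nearly identical to part of CASP1, so that reads may have been split between them. Its fitted value was -4.01 without shPBRM1 replicate 1 and -8.51 without shPBRM1 replicate 3, the only silenced library with counts, and is no bound. GSDMD, the pore-forming target of these caspases, differed by -0.82 on the log2 scale, under 2-fold, and was picked with its values known. CASP1, NLRP1 and CARD16 passed the filter only through the shCTL libraries where they were high, so their calls add nothing to the counts.

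Downstream of the IL-1 receptor, 13 of 14 genes were tested, 1 was called lower and 0 higher, with a median of -0.05, a share near the 9.68% of all genes called lower. MYD88, the adaptor of this receptor, fell from 39.2 ± 1.92 to 15.3 ± 0.258 CPM (log2 fold change -1.36, SE 0.044, adjusted p = 2.12e-15, edgeR), and the other 12 lay within 2-fold.

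Of 18 transcription factors known to act on cytokine promoters, all were tested, 2 were called lower, 0 higher and 16 neither, which is near the 9.68% of all genes called lower. By the adjusted p alone 15 were lower and 2 higher, against 33.2% and 31.5% of all genes, and the median was -0.38. ETS2, an ETS family factor, fell from 76.5 ± 1.63 to 25.7 ± 1.03 CPM (log2 fold change -1.57, SE 0.037, adjusted p = 6.74e-19, edgeR). ATF3, a stress-induced partner of AP-1, fell from 54.2 ± 0.640 to 22.2 ± 0.106 CPM (-1.29, SE 0.011, adjusted p = 1.34e-16, edgeR). The NF-kB and C/EBP genes of the list, named after their values were seen, were all under 2-fold, with log2 fold changes of -0.38 for RELA, -0.18 for NFKB1, -0.37 for NFKB2, -0.35 for REL, -0.67 for RELB, -0.63 for CEBPB and -0.54 for CEBPD.

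None of the 12 tested genes that bind AU-rich elements or govern cytokine mRNA decay was called by edgeR or by DESeq2. By edgeR's adjusted p under 0.05 alone, 5 were lower and 6 higher, against 33.2% and 31.5% of all genes, and the median was 0.04. Of the pair with the highest mean level over both groups, ZFP36L1, which promotes decay, was at 342 ± 8.53 and 339 ± 14.0 CPM (log2 fold change -0.01, adjusted p = 0.828, edgeR). HNRNPD, which binds AU-rich elements, was at 265 ± 6.59 and 353 ± 3.29 CPM (0.41, adjusted p = 2.03e-09, edgeR).

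Of 12 genes of the gp130 and STAT3 response, 1 was called lower, 0 higher and 11 neither, near the 9.68% of all genes called lower, with a median of -0.33. By the adjusted p alone 10 were lower and 0 higher, against 33.2% and 31.5% of all genes. Of these, CEBPD, JUNB and FOSL1 were also in the list of transcription factors and were counted as lower there too. VEGFA, the angiogenic factor, fell from 397 ± 13.5 to 180 ± 8.60 CPM (log2 fold change -1.14, SE 0.049, adjusted p = 1.34e-16, edgeR). Named after their values were seen, STAT3 had a log2 fold change of -0.07 (adjusted p = 0.127, edgeR) and its feedback inhibitor SOCS3 of 0.04 (adjusted p = 0.483, edgeR). These were the 2 genes of the list that did not pass the adjusted p. Of the 10 lower ones, FOSL1 differed by -0.76 and BCL3 by -0.74, also named after their values were seen.

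**Figure D5:**
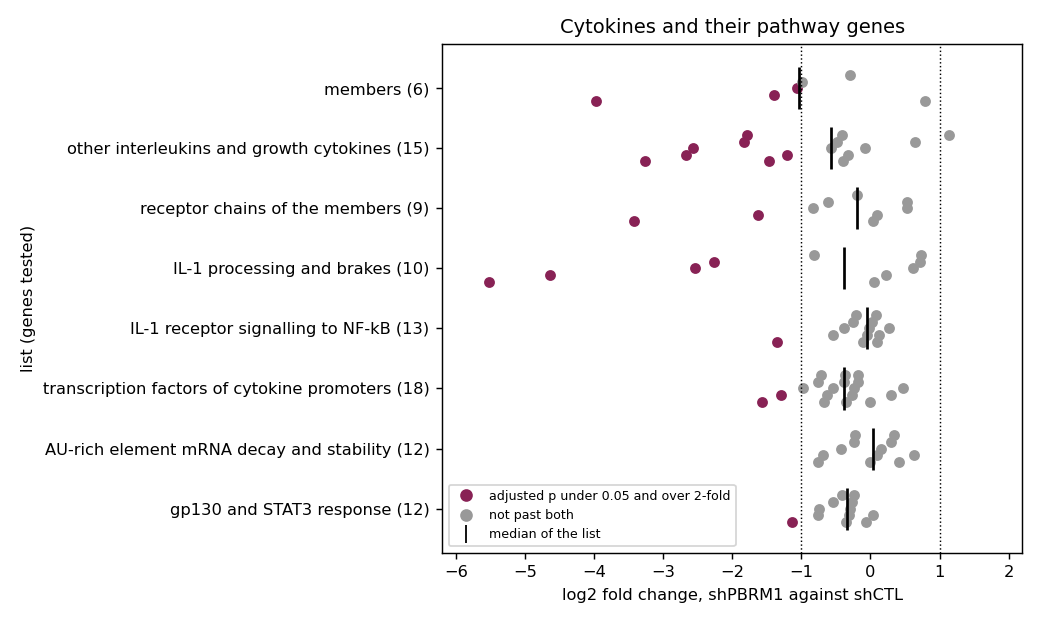
Log2 fold change of each tested gene (points) in the 10 cytokines and 7 lists of related genes, with the number tested in brackets and a line at each list's median; dotted lines mark 2-fold. Colored points, with an adjusted p under 0.05 and a change over 2-fold, all lie to the left, and the list of AU-rich element genes has none. CEBPD, JUNB and FOSL1 are drawn both with the transcription factors and with the gp130 and STAT3 genes.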

How the data were processed

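RNA-seq libraries of BT-549 cells were compared in 2 groups of 3. Per the labels, total RNA was extracted with Trizol and libraries were made with a stranded poly(A) kit. What the authors deposited are raw, whole-number counts for each gene symbol. The submitters' processing notes name CASAVA 1.8.2, STAR 2.7.9a, featureCounts, DESeq2 1.24.0 and the build GRCh38.p7; the annotation and the strand setting are not given in the sources used here. Groups and replicate numbers come from the sample titles. The control columns carry only the cell line and a number, and were matched to the control titles by that number. The table holds 37887 rows, 12608 of them with 0 counts throughout, and 14 carry dates in place of symbols.

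Tests used the quasi-likelihood F-test of edgeR 4.0.16 (R 4.3.3) on TMM-scaled counts, after filterByExpr had kept 15450 genes, with Benjamini-Hochberg adjustment. A gene was called at an adjusted p under 0.05 with more than a 2-fold change. Levels are CPM, and RPKM used the exon length in GENCODE v29 on GRCh38. SEs reflect the replicate spread in log2 CPM with 2 counts added. Genes under the filter were given exact permutation tests and exact 95% intervals on summed counts. The tests were checked on simulated counts.

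The cytokines and gene lists were chosen with earlier results of these data known. Named were the 10 cytokines and PBRM1, up to 4 called genes of each list by size of change or, in a list with none, the 2 of highest level, and the 3 genes most like IL6. Over 5622 genes, the deviations from the group means of same-numbered libraries correlated at 0.733, 0.593 and 0.418 for numbers 1, 2 and 3. Those with different numbers correlated at between -0.67 and 0.464. The highest of these, of shCTL 2 with shPBRM1 3, was above the 0.418 of number 3. Whether the numbers mark pairs is not settled by these values. Replicates differed by more than sampling noise (chi-square of 4.66 to 22.6 per degree of freedom). The pairs of shPBRM1 replicate 1 with replicates 2 and 3 gave 19.5 and 22.6, and every other pair gave at most 6.86. Alternatives were DESeq2 1.42.0, RLE factors, library size only, no filter, a mean count of 50 or more, the replicate block, leaving out each library, no fold minimum and glmTreat at 1.5-fold.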

Additional observations from a re-analysis of the deposited data

How the results depend on the processing

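IL6, CSF1 and LIF kept their direction and their side of both thresholds with DESeq2, the other scalings and filters, the replicate block and each library left out; with no fold minimum LIF and IL15 count as lower too. IL15 passed 2-fold with library size only (-1.05) and where a mean count of 50 or more was required (-1.01), and lay between -1.03 and -0.94 with 1 library left out. IL32 lay between -1.14 and -0.99. The cytokines called lower numbered 2 to 4 and those called higher 0 to 1 with 1 library left out, and 5 and 1 with no fold minimum. Over all genes, 1496 lower and 443 higher calls became 941 and 270 with that minimum and 5137 and 4863 with no fold minimum, and glmTreat gave 759 higher; these follow from fewer genes tested or a looser threshold. With the minimum of 50 the lower calls were 3 among the further interleukins, 1 among the receptor chains and 2 in IL-1 processing. With 1 library left out, higher calls ranged from 0 to 1 in the further interleukins and in IL-1 processing, where IL1R2 was called without shCTL replicate 1. The replicate block gave 1498 lower and 457 higher calls over all genes. Among the further interleukins it gave 1 higher call, EBI3, which supports nothing for the reason given above. It changed no other call among the listed genes. ZFP36L1 turned direction within -0.033 to 0.024, at 0.0090 without shCTL replicate 3 and 0.024 without shPBRM1 replicate 1; its difference never passed the test. Library size only moved the median of all genes to -0.056. Depth limits IL1A, IL11, CSF2 and CSF3.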
